A study of Bos taurus with 8 samples.

Results

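The interstitial collagens are the chains that build the fibrils and fine filaments of connective tissue. A set of 10 such genes was looked for by symbol among the probes of a bovine expression array: COL1A1 and COL1A2 (type I), COL3A1 (type III), COL5A1 and COL5A2 (type V), COL6A1, COL6A2 and COL6A3 (type VI), COL11A1 (type XI) and COL12A1 (type XII). Of the 10 genes, 5 were matched to a probe through the RefSeq accession that the array gives, 1 probe each, among 7788 genes with a probe and 21475 probes in all. These were COL1A1, COL1A2, COL3A1, COL11A1 and COL6A1. The other 5 genes, with all of types V and XII, were not analysed here.

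RNA came from primary cultures of muscle cells grown out of semitendinosus, a hind limb muscle. The donors were bulls aged 15 months, Limousin (LIM), Hereford (HER) (both of beef type) and Holstein-Friesian (HF), a dairy breed, and the cells were harvested while dividing in serum medium at 80% confluence. On 4 arrays, LIM RNA carried the red dye Cy5 and HF RNA the green dye Cy3, and on 4 other arrays HER RNA carried Cy3 and HF RNA Cy5. Each comparison had its own slide, so that in each of them the breed cannot be told apart from the slide or from the dye, and both comparisons share HF. Which bull was hybridized on which array is not given in the sources used here. The cultures had been enriched for myogenic cells by preplating and still held other cells. The muscle regulators MYF5, MYOD1 and MYOG and the muscle filament protein DES were well above background in all 16 channels, whereas no probe was matched to PAX7.

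A collagen molecule is a triple helix of chains. Types I and III form fibrils of muscle connective tissue. Type XI is a minor fibril-forming collagen best known from cartilage that sits inside fibrils and limits their width. Type VI forms beaded filaments close to the cell surface. In muscle these proteins are made mainly by fibroblasts, and myogenic cells in culture also make some of them. New chains are hydroxylated and folded in the endoplasmic reticulum, exported, trimmed of their propeptides outside the cell and cross-linked by lysyl oxidases.

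All 4 fibril-forming chains were brighter in both beef breeds than in HF, by 4.39-fold to 14.6-fold in LIM and by 4.92-fold to 8.95-fold in HER. The filament chain COL6A1 was 1.58-fold higher in LIM and 1.22-fold higher in HER, and only the LIM value passed the test. The test was limma's moderated test on the log2 ratio of the beef channel over the HF channel, and calls needed a Benjamini-Hochberg adjusted p not above 0.05 together with a 1.3-fold difference or more. In LIM versus HF, 5 of 5 chains were called higher, against 16.1% of the 17622 probes tested. In HER versus HF, 4 of 5 chains were called higher, against 10.4% of the probes. The median ratio of the 5 chains was 2.67 in LIM and 2.37 in HER on the log2 scale, beside -0.01 and -0.06 for all probes tested. All 5 probes were well above background in 16 of 16 channels, no spot was saturated, and the 2 spots of a probe on an array lay at most 0.23 apart on the log2 scale. In whole cultures, fewer cells of a type and less RNA per cell cannot be told apart.

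**Figure D1:**
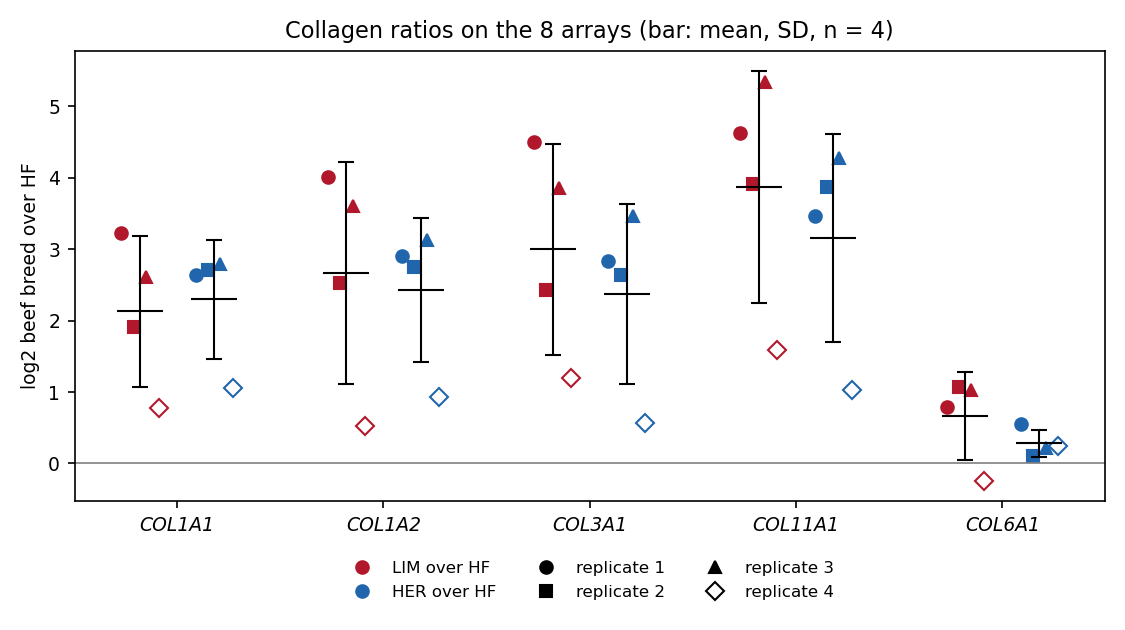
The vertical axis is the log2 ratio of the beef channel over the HF channel, and each point is 1 array, with LIM in red, HER in blue and replicate 4 as open diamonds. Black bars give the mean and SD of 4 arrays. The open diamonds are the lowest points for COL1A1, COL1A2, COL3A1 and COL11A1 in both comparisons, and 1 point, COL6A1 on LIM replicate 4, lies below 0.

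COL1A1 and COL1A2 encode the α1 and α2 chains of type I collagen, the main fibril protein of muscle connective tissue. The log2 ratio of COL1A1 was 3.23, 1.91, 2.62 and 0.77 on LIM replicates 1 to 4, and 2.64, 2.71, 2.80 and 1.05 on HER replicates 1 to 4. All 8 arrays had more COL1A1 signal in the beef channel, and the lowest ratio of each comparison was that of replicate 4. COL1A1 averaged 2.13 ± 1.06 (SD, n = 4, limma adjusted p = 0.00533) in LIM and 2.30 ± 0.83 (SD, n = 4, limma adjusted p = 0.00808) in HER. For COL1A2 the LIM arrays gave 4.02, 2.52, 3.61 and 0.53, and the HER arrays 2.91, 2.75, 3.14 and 0.93. Again no array was below 0 and replicate 4 stood apart at the low end. COL1A2 averaged 2.67 ± 1.56 (SD, n = 4, limma adjusted p = 0.00779) in LIM and 2.43 ± 1.01 (SD, n = 4, limma adjusted p = 0.0182) in HER.

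COL3A1 encodes the single chain of type III collagen, which forms fine fibrils alongside type I. Its log2 ratio was 4.51, 2.42, 3.85 and 1.20 on LIM replicates 1 to 4, and 2.83, 2.64, 3.46 and 0.56 on HER replicates 1 to 4. The beef channel was the brighter on every array, and the smallest difference was that of HER replicate 4. The means were 3.00 ± 1.48 (SD, n = 4, limma adjusted p = 0.00568) in LIM and 2.37 ± 1.26 (SD, n = 4, limma adjusted p = 0.0224) in HER.

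COL11A1, the α1 chain of type XI collagen, had the highest ratio of the 5 chains in both comparisons. The LIM arrays gave 4.63, 3.91, 5.34 and 1.59, and the HER arrays 3.46, 3.87, 4.28 and 1.04. Every array showed more COL11A1 in the beef channel, from 2.05-fold on HER replicate 4 to 40.4-fold on LIM replicate 3. The means were 3.87 ± 1.63 (SD, n = 4, limma adjusted p = 0.00316) in LIM and 3.16 ± 1.46 (SD, n = 4, limma adjusted p = 0.0131) in HER. Of the 17622 probes tested, COL11A1 ranked 25 from the top in LIM and 30 from the top in HER.

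COL6A1 encodes the α1 chain of type VI collagen and moved least. Its log2 ratio was 0.78, 1.08, 1.02 and -0.24 on LIM replicates 1 to 4, and 0.56, 0.11, 0.21 and 0.25 on HER replicates 1 to 4. LIM replicates 1 to 3 lay near 1 and LIM replicate 4 was on the other side of 0, whereas the HER arrays were all slightly above 0. The mean was 0.66 ± 0.62 (SD, n = 4, limma adjusted p = 0.0396) in LIM and 0.28 ± 0.19 (SD, n = 4, limma adjusted p = 0.347) in HER. The LIM call was lost when any 1 array other than LIM replicate 4 was left out, with adjusted p from 0.0513 to 0.153.

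**Figure D2:**
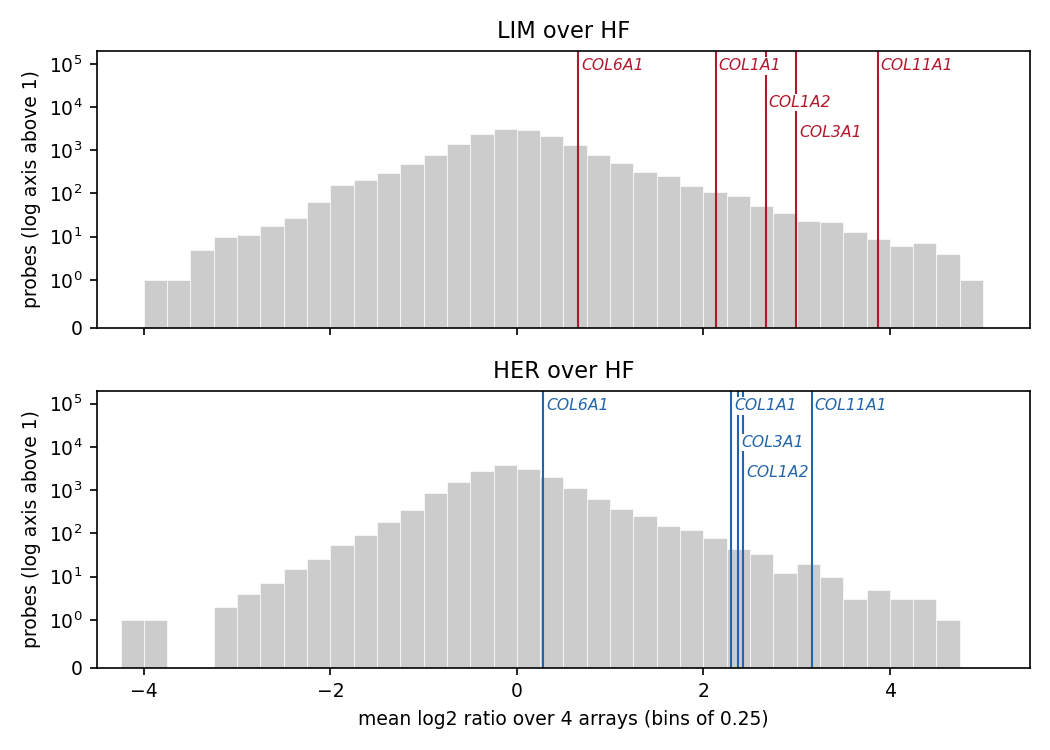
Gray bars count the 17622 tested probes by their mean log2 ratio over 4 arrays in bins of 0.25, on a count axis that is logarithmic above 1. Vertical lines mark the 5 collagen chains. The 4 fibril-forming chains lie in the sparse right tail of both panels, and COL6A1 lies at the right shoulder of the bulk.

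The mean of the LIM and HER ratios, here called the beef effect, combines both dye orientations, so that a dye effect on a probe cancels in it. All 5 chains were called higher for the beef effect, against 17.7% of the probes. COL11A1 led with 3.52 (SE 0.46, limma adjusted p = 0.000624), and COL6A1 was last with 0.47 (SE 0.15, limma adjusted p = 0.0302). The COL6A1 call was lost when any 1 array other than LIM replicate 4 was left out, with limma adjusted p from 0.0512 to 0.0817. In between lay COL3A1 at 2.69, COL1A2 at 2.55 and COL1A1 at 2.22, with limma adjusted p of 0.00123, 0.0013 and 0.000605. The 4 fibril-forming chains were higher in the beef channel on 8 of 8 arrays, as were 11.7% of the probes, and the exact two-sided sign-flip permutation test over the 8 arrays gave p = 0.00781 for each, the smallest it can give. COL6A1 was higher on 7 of 8 arrays (exact sign-flip permutation p = 0.0312). This test and the limma test of the beef effect both take the 8 arrays as independent. However, the paper describes fewer HF bulls than there are HF channels, so HF bulls must recur across the arrays. The SE and p-values of the beef effect do not allow for this and may be too small.

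No chain separated the 2 beef breeds by its ratio to HF. The LIM ratio minus the HER ratio, on the log2 scale with its 95% interval, was -0.16 (-1.49 to 1.16) for COL1A1, 0.24 (-1.58 to 2.06) for COL1A2 and 0.62 (-1.27 to 2.52) for COL3A1. It was 0.71 (-1.42 to 2.83) for COL11A1 and 0.38 (-0.30 to 1.06) for COL6A1. None of the 5 differences was called by limma, against 0.233% of the probes in either direction, and adjusted p lay between 0.607 and 0.926. The count was also 0 at an unadjusted limma p under 0.05, where 14.1% of the probes passed. The intervals are wide, and this difference cannot be told apart from slide and dye. By ratio, each fibril-forming chain was thus higher in both beef breeds than in HF, and the LIM and HER ratios did not differ beyond their spread. In signal, the LIM and HER channels overlapped for COL1A1, COL1A2, COL3A1 and COL6A1. For COL11A1 they did not, at 24094 to 45883 in LIM and 10132 to 22804 in HER. The share of all probes that separate in this way was not counted. These channels differ in slide and dye.

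The brightness of each channel showed where the arrays differed. For COL1A1 on the LIM slide, the LIM channel read 273200, 176345, 161978 and 133340 on replicates 1 to 4 and the HF channel 29042, 46912, 26381 and 78047, in processed signal after the scanner software's dye normalization. The groups did not overlap. On the HER slide the HER channel of COL1A1 read 159698, 217306, 161980 and 110919, and the HF channel 25621, 33301, 23323 and 53530. There, too, every HER value was above every HF value. How many of all probes separate in this way was not counted.

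COL1A2 read 235165, 139161, 162962 and 112079 in the LIM channel and 14518, 24229, 13373 and 77542 in the HF channel beside it. On the HER slide COL1A2 read 127390, 183320, 129550 and 98234 in the HER channel and 16978, 27291, 14732 and 51609 in the HF channel. In both cases the HF channel of replicate 4 came close to the beef channels. COL3A1 read 177960, 86962, 89836 and 77795 in LIM against 7822, 16195, 6212 and 33787 in HF, and 68523, 105287, 65791 and 42925 in HER against 9622, 16877, 5978 and 29024 in HF. The order of the arrays within HF was that of COL1A1 and COL1A2, with replicate 4 brightest, then replicates 2, 1 and 3, on both slides.

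COL11A1 was the most variable chain within HF. Its HF channel read 1851, 1668, 777 and 7996 on the LIM slide, beside 45883, 25134, 31393 and 24094 in LIM. On the HER slide its HF channel read 1487, 1558, 521 and 5943, beside 16367, 22804, 10132 and 12180 in HER. The highest HF value of COL11A1 was 10.3-fold and 11.4-fold the lowest on the LIM and HER slides, while the beef channels spanned 1.90-fold and 2.25-fold. COL6A1 behaved differently, at 4561, 5038, 5841 and 6042 in HF and 7858, 10622, 11884 and 5107 in LIM. On the HER slide it read 7345, 4887, 3397 and 4789 in HF and 10817, 5262, 3935 and 5683 in HER. COL6A1 was the one chain whose beef and HF channels overlapped, on both slides. Its HF channel spanned 1.32-fold on the LIM slide and 2.16-fold on the HER slide, where that of COL1A1 spanned 2.30-fold.

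**Figure D3:**
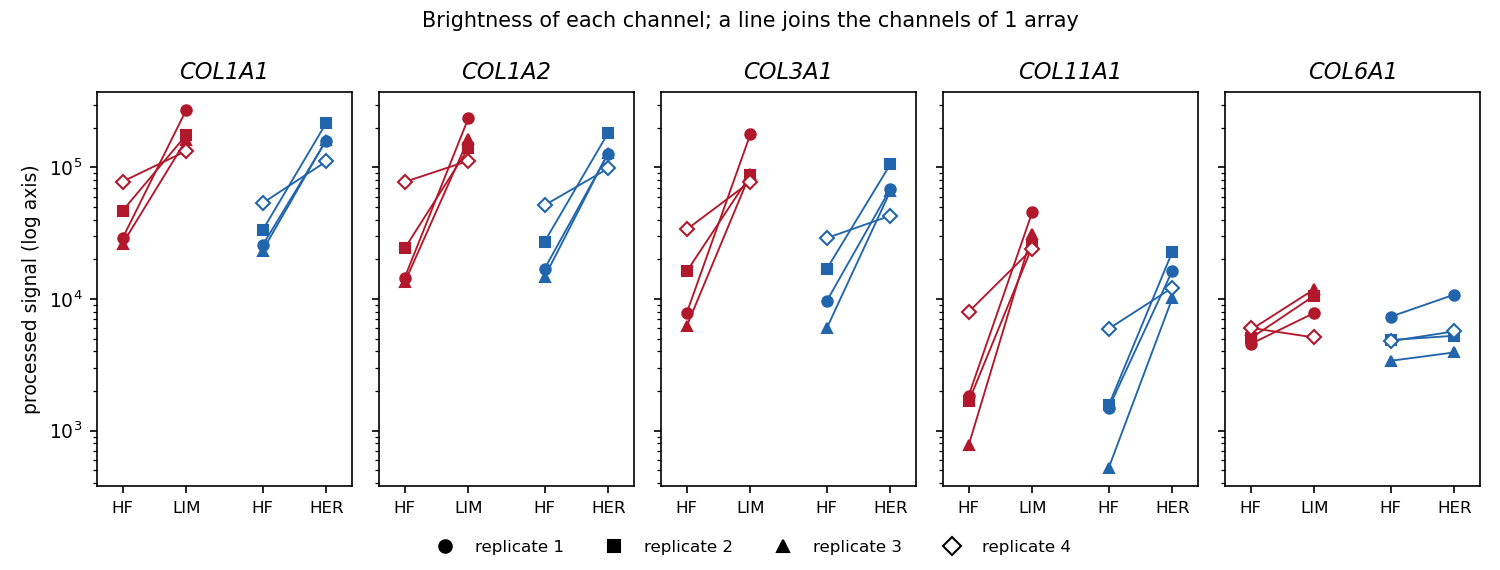
The vertical axis is the processed signal of a channel on a log scale, and each line joins the HF channel and the beef channel of 1 array, with the LIM slide in red and the HER slide in blue. For COL1A1, COL1A2, COL3A1 and COL11A1 the open diamond of replicate 4 is the highest HF point on both slides and its line is the flattest, while the COL6A1 lines are nearly level.

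The HF channel of replicate 4 was thus the brightest HF channel for all 4 fibril-forming chains on both slides, and that of replicate 3 the dimmest. Whether HF channels of the same number came from the same bull is not given in the sources used here. Against the median of the other 3 HF channels, HF replicate 4 was 2.69-fold, 5.34-fold, 4.32-fold and 4.79-fold brighter for COL1A1, COL1A2, COL3A1 and COL11A1 on the LIM slide. On the HER slide it was 2.09-fold, 3.04-fold, 3.02-fold and 4.00-fold brighter in the same order. For COL6A1, HF replicate 4 was at 1.20-fold on the LIM slide and 0.98-fold on the HER slide. The beef channel of replicate 4 was below the median of the other beef channels, at 0.63-fold to 0.87-fold for the 4 chains over both slides. For COL6A1 this beef channel was at 0.48-fold in LIM and 1.08-fold in HER. The HF values of all 4 chains varied more between arrays than the beef values did (SD of the log2 signal 0.54 to 1.44 in HF and 0.37 to 0.54 in the beef breeds). Among all probes, HF varied more in 39.1% on the LIM slide and 49.2% on the HER slide, and HF was brightest on replicate 4 in 20.0% and 10.2%. Without both arrays numbered 4, a choice made after these values were seen, the beef effect was 2.65, 3.16, 3.29 and 4.25 for COL1A1, COL1A2, COL3A1 and COL11A1 and 0.63 for COL6A1, and the number of chains called was again 5 in LIM, 4 in HER and 5 for the beef effect.

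The chains were also set against each other within each array, as differences of log2 ratios and without a test. COL11A1 exceeded COL3A1 and COL1A2 on 8 of 8 arrays, by 0.12 to 1.49 and by 0.11 to 1.73, and COL1A1 on 7 of 8. COL6A1 lay below every fibril-forming chain on 8 of 8 arrays, by a median difference of -1.84 from COL1A1 and -3.33 from COL11A1. COL1A2 minus COL1A1, within type I, ran from -0.24 to 0.99 and was negative on the 2 arrays numbered 4. COL3A1 minus COL1A2 ran from -0.36 to 0.67 and was positive on 4 of 8 arrays. COL3A1 minus COL1A1 was positive on 6 of 8 arrays, with a mean of 0.86 ± 0.45 (SD, n = 4) and a range of 0.43 to 1.27 on the LIM arrays, and 0.08 ± 0.48 (SD, n = 4) on the HER arrays. COL11A1 thus had the highest ratio on 7 of 8 arrays and COL6A1 the lowest on 8 of 8.

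The calls depended on arrays and on the test. The methods' t-test with Benjamini-Hochberg adjustment called 0 of the 5 chains in LIM and 0 in HER, and 4 in each without adjustment. Leaving out HER replicate 1 or HER replicate 2 took the number of chains called in HER from 4 to 1, and leaving out HER replicate 3 took it to 2, each time with COL1A1 still called. With normexp background correction and loess in place of the scanner's log ratios, no probe was called in HER when the local background was used as measured, and 4 chains were called when marked backgrounds were replaced.

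Other genes of collagen biosynthesis were counted from lists of textbook genes. For the beef effect, 9 of 14 tested genes of hydroxylation and folding were called higher and 0 lower, beside 17.7% and 20.4% of all probes. In LIM the counts were 8 higher and 0 lower (16.1% and 18.3% of all probes). In HER they were 8 higher and 1 lower (10.4% and 14% of all probes), the latter being FKBP14 (-0.56), a prolyl isomerase. The median beef effect of the list was 0.80, beside -0.04 for all probes tested. The lysyl hydroxylases PLOD3, PLOD1 and PLOD2 were higher by 1.92 (SE 0.22), 1.80 (SE 0.17) and 1.33 (SE 0.18), with limma adjusted p of 0.000395, 0.000223 and 0.000613. Of the prolyl 4-hydroxylase subunits, P4HA2 was higher by 1.80 (SE 0.19, limma adjusted p = 0.000308) and P4HA1 by 0.85 (SE 0.16, limma adjusted p = 0.00281). SERPINH1, the collagen chaperone HSP47, was at 0.65 (SE 0.33, limma adjusted p = 0.132) and was not called, with 1 array, LIM replicate 4, at -1.88.

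**Figure D4:**
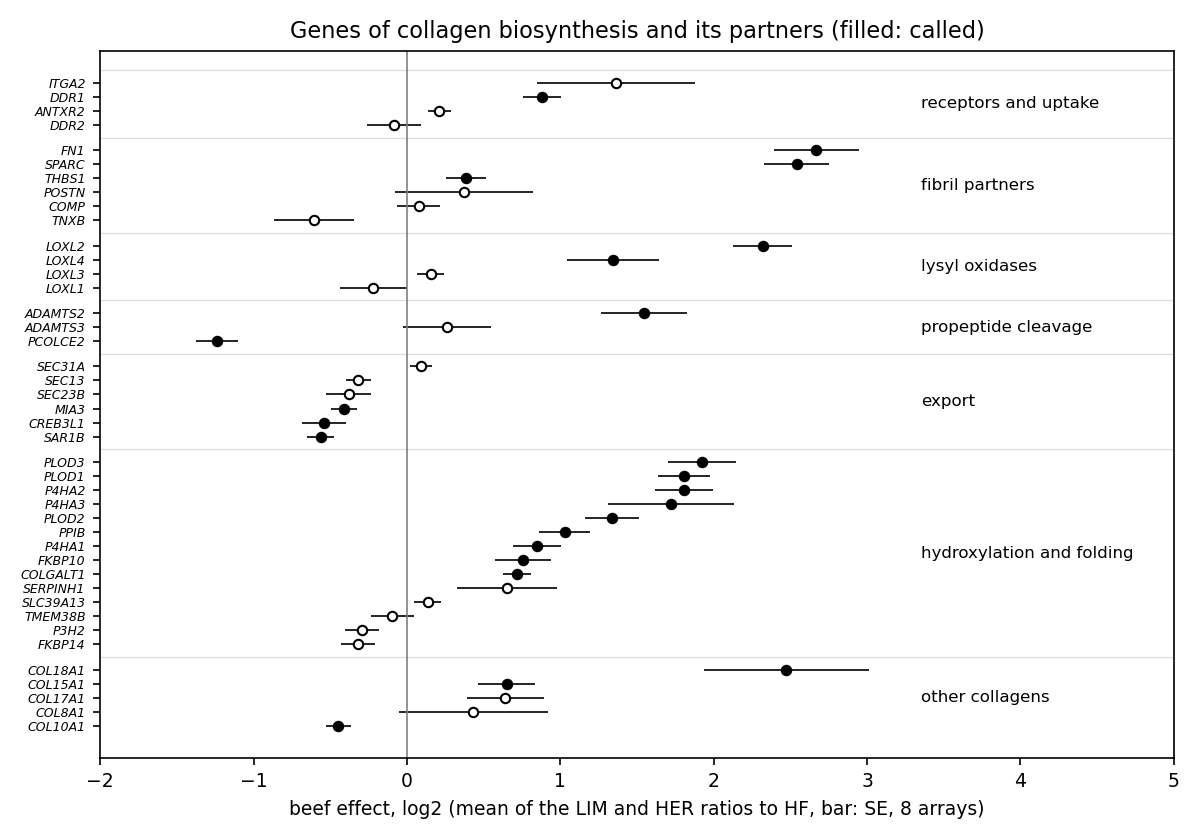
Each point is the beef effect of 1 gene on the log2 scale with its SE over 8 arrays, grouped by list, and filled points were called. Filled points lie to the right of 0 for 9 genes of hydroxylation and folding, and the 3 filled points among the export genes lie to the left.

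Further along the pathway the lists were small, and their counts are read against the shares of all probes. Of all probes, 16.1% were called higher in LIM, 10.4% in HER and 17.7% for the beef effect. Called lower were 18.3%, 14% and 20.4% in the same order. Of 6 tested genes for export of procollagen, 3 were called lower and 0 higher for the beef effect (LIM 2 lower, HER 1 lower), with a list median of -0.40. They were SAR1B at -0.56, a GTPase of transport vesicles, CREB3L1 at -0.54, a transcription factor of collagen-secreting cells, and MIA3 at -0.41, a cargo receptor. MIA3 had a dimmer probe with the opposite sign, 0.60 in LIM and 0.22 in HER, so its direction depended on the probe. For propeptide cleavage 1 of 3 genes was called higher and 1 lower in LIM, in HER and for the beef effect, namely the N-proteinase ADAMTS2 at 1.55 and the enhancer protein PCOLCE2 at -1.24, with a list median of 0.26. No probe was matched to BMP1, the C-proteinase.

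Of 4 lysyl oxidase family genes, 2 were called higher and 0 lower in LIM, in HER and for the beef effect, where 16.1%, 10.4% and 17.7% of all probes were called higher, with a list median of 0.75. LOXL2 was higher by 2.32 (SE 0.19, limma adjusted p = 0.000163) and LOXL4 by 1.34 (SE 0.30, limma adjusted p = 0.00688). LOX itself had no matched probe. Of 6 matrix proteins that bind fibrils, 3 were called higher and 0 lower for the beef effect (2 higher in LIM and in HER), with a list median of 0.38. FN1, fibronectin, was higher by 2.67 (SE 0.28, limma adjusted p = 0.000307), SPARC, which binds collagen during secretion and assembly, by 2.54 (SE 0.21, limma adjusted p = 0.000168), and THBS1 by 0.38. FN1 and SPARC were higher on 8 of 8 arrays.

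Of 4 collagen receptors or uptake proteins, only the receptor kinase DDR1 was called. It was higher by 0.88 in the beef effect and called in each breed, with a list median of 0.54. Among all probes, 17.7% were called higher and 20.4% lower for the beef effect, 16.1% and 18.3% in LIM, and 10.4% and 14% in HER. The other probes of DDR1 were at 0.67 and 1.12 in LIM and 0.11 and 0.81 in HER. No probe was matched to the 5 remaining fibril-forming collagens. Of 29 collagens of other kinds 5 had a probe, and 2 of these were called higher and 1 lower for the beef effect (LIM 1 and 1, HER 0 and 0), with a list median of 0.64. COL18A1, a basement membrane collagen, was higher by 2.47 and on 7 of 8 arrays. COL15A1, another basement membrane collagen, was higher by 0.65, and COL10A1, of hypertrophic cartilage, was lower at -0.45.

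Markers of the cell types that the cultures could hold differed in direction between and within lists. Of 11 tested fibroblast markers, 4 were called higher and 2 lower in LIM, 3 and 2 in HER, and 6 and 2 for the beef effect. Among all probes, 16.1% were called higher and 18.3% lower in LIM, 10.4% and 14% in HER, and 17.7% and 20.4% for the beef effect. MFAP5, LUM, THY1, S100A4 and FAP were higher by 2.68, 1.35, 0.92, 1.26 and 0.60 in the beef effect, while PDGFRA and DPT were lower, at -1.42 and -0.95. DCN, decorin, was higher by 1.63 on its brighter probe, and its dimmer probe was at -0.40 in LIM and -0.29 in HER. The summed signal of the fibroblast list was 136609 to 199300 in LIM against 58901 to 103020 in HF, and 70103 to 182159 in HER against 41477 to 63269 in HF. It was higher in the beef channel on 8 of 8 arrays. The highest HF sum on each slide was that of replicate 4, as for some other lists named below. The part of fibroblast number in the collagen ratios was not tested.

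Of 7 tested satellite cell and myoblast markers, 4 were called higher and 0 lower in LIM and in HER, beside 16.1% and 10.4% of all probes higher. The summed signal of the 7 was 46787 to 117531 in LIM and 17228 to 59550 in HF. On the HER slide it was 32879 to 96035 in HER and 11490 to 39507 in HF. The highest HF sum on each slide was again that of replicate 4. That held too for the smooth muscle, hydroxylation and folding, lysyl oxidase and fibril partner lists. For the export, dividing-cell, endothelial, leukocyte, and tendon and cartilage lists, HF replicate 4 had the lowest HF sum on each slide. Of 11 tested genes of differentiating muscle cells, 11 were called higher in both breeds, with a median beef effect of 2.92. Their sums were 60673 to 133638 in LIM against 6090 to 13969 in HF and 18882 to 111010 in HER against 3352 to 13455 in HF. The part of differentiation in the collagen ratios was not tested.

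The other lists are read against the same shares of all probes, 16.1% higher and 18.3% lower in LIM and 10.4% and 14% in HER. For smooth muscle cells and pericytes, 2 of 6 tested genes were called higher in LIM and 3 of 6 in HER, with sums of 220987 to 451206 in LIM and 102535 to 274091 in HF on the LIM slide, and of 273304 to 472047 in HER and 133194 to 192532 in HF on the HER slide. Adipocyte sums were lower in the beef channel on 8 of 8 arrays, 18065 to 63817 in LIM against 118945 to 150149 in HF and 38424 to 51626 in HER against 55142 to 111973 in HF, with 3 of 7 genes called lower and 1 higher in LIM and 1 each way in HER. Dividing-cell sums were 20013 to 42369 in LIM against 39136 to 72696 in HF and 16873 to 32057 in HER against 23395 to 53947 in HF, lower in beef on 7 of 8 arrays, with 2 of 5 genes called lower in LIM and 0 in HER.

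The remaining marker lists were dimmer. Endothelial sums were 525 to 8080 in LIM against 658 to 2088 in HF and 220 to 5661 in HER against 437 to 1264 in HF, and of 5 genes 1, CLDN5, was called lower in HER. Leukocyte sums were 356 to 819 in LIM against 288 to 570 in HF and 164 to 367 in HER against 189 to 355 in HF, and of 3 genes 1, CD68, was called higher in both breeds. Tendon and cartilage sums were 654 to 1100 in LIM against 607 to 851 in HF and 431 to 790 in HER against 378 to 539 in HF, and of 3 genes 1, COL10A1, was called lower in LIM. The leukocyte marker ITGAM was well above background in no channel. The part of these cells in the collagen ratios was not tested.

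Closeness over the 8 arrays was taken among 6802 genes outside the set, so the collagen chains themselves were left out. The 5 genes most like the mean of COL1A1 and COL1A2 were CTSB, DKK3, GNAS, LAMP1 and CTSA. Their root mean square difference in log2 ratio was 0.37, 0.41, 0.41, 0.47 and 0.48. CTSB and CTSA encode lysosomal cathepsins and LAMP1 a lysosomal membrane protein. CTSB averaged 2.54 in LIM and 2.42 in HER. Among the same genes outside the set, the 5 closest to COL11A1 were MYOC, CDH13, FMOD, GADD45G and CST3. They were less close, at 0.73, 0.75, 0.78, 0.84 and 0.98. FMOD encodes fibromodulin, a small proteoglycan that binds fibrillar collagen, and averaged 2.88 in LIM and 3.04 in HER.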

How the data were processed

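The authors deposited 8 arrays read with Feature Extraction 10.7.3.1, with the intensity of each spot in both colors and the log10 of red over green as the software background-subtracts and dye-normalizes it, and a series table of the same log10 ratios. Ratios were turned to beef breed over HF, converted to log2 and averaged over the 2 spots of a probe, without outlier spots. Accessions were matched to RefSeq symbols (7793 of 20693). Probes that 4 or more of the 16 channels showed well above background were tested. The test was limma 3.58.1 in R 4.3.3 on all 8 arrays, with Benjamini-Hochberg adjustment. The procedure was tried on simulated data with independent arrays. That trial held no HF bulls shared between arrays, so it does not cover this feature of the design. Between 68.8% and 85.2% of probes per channel were well above background, and the number of arrays limits the precision. P-values measure the spread between arrays of cultures whose bulls the labels do not name.

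The 10 genes and all lists were chosen with earlier results of these data known. Per pathway list, at most the 3 largest called beef effects were named, plus LOX, SERPINH1, P4HA1, PLOD2, BMP1, FN1 and SPARC. A gene with several probes was represented by the brightest. Other genes, among them FKBP14 and the markers, were named after their values were seen. Alternatives covered background correction, centering, spot and probe filters, array weights, the methods' t-test, a replicate block and leaving out arrays.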

Additional observations from a re-analysis of the deposited data

Results flagged for a closer look

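The COL1A1 log2 ratio of HER replicate 4, 1.05, lay far below the other HER arrays, which fell between 2.64 and 2.80. It was 1 of 10 groups of 4 arrays examined (5 chains in each comparison), and chance marks about 1 in 20 such groups.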

How the results depend on the processing

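The collagen values kept their direction under all 23 alternatives in LIM versus HF, HER versus HF and the beef effect. Several of these could not move a collagen ratio, namely the series table, the probe filters, unadjusted limma, the methods' t-tests and the replicate block. Leaving out an array of one comparison could not move the ratio of the other. With normexp and loess on the local background as measured, HER versus HF had 0 probes and 0 chains called in place of 4302 and 4 (COL1A1 2.08, COL1A2 2.19, COL3A1 2.01 and COL11A1 2.11, limma adjusted p 0.16 to 0.216), the beef effect 3291 probes in place of 6722, and the cause was not tested. The methods' t-test with Benjamini-Hochberg adjustment called 1003 probes and 0 chains in LIM and 2 probes and 0 chains in HER (unadjusted, 4 chains in each), whereas limma called 6056 and 5 in LIM. For LIM minus HER, with 41 probes called, the count was 0 and 1 with normexp (background as measured, and replaced), 1 without background subtraction, 76 without the filter, 0 with all 16 channels required, 224 with array weights, 2480 with unadjusted limma, 2133 with the unadjusted t-test and 1 without both arrays numbered 4. Leaving out 1 array gave 3796 to 7010 probes and 4 to 5 chains in LIM, 1527 to 5437 probes and 1 to 4 chains in HER, 5855 to 7458 probes and 4 to 5 chains for the beef effect, and 1 to 14 probes for LIM minus HER. Called probes in HER were higher in 42.6%, against 54.9% and 55.2% with marked backgrounds replaced and without background subtraction.

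As the labels number both comparisons alike, the pairing was checked. Same-numbered arrays correlated in their deviations at r = -0.24, 0.13, 0.30 and 0.54 for numbers 1 to 4. Since number 1 was negative, the main fit left the pairing out, although numbers 2 to 4 were positive. Some arrays of different number correlated as well. HER replicate 3 with LIM replicate 1 had r = 0.40, and HER replicate 2 with LIM replicate 1 had r = 0.27. Only number 4 exceeded every pair of different number. These deviations are of ratios, which also vary with the beef channel. They cannot decide whether same-numbered HF channels came from the same bull. The replicate block gave 6357 probes in LIM, 4304 in HER, 7012 for the beef effect and 0 for LIM minus HER, with 5, 4 and 5 chains called.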
